A study of Mus musculus with 9 samples.

Results

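The genes described here are markers and regulators of the endothelium, of the endocardium that lines the heart chambers, and of the lymphatic vessels. They are 43 named genes, taken by their symbol in the probe annotation. All 43 were measured, out of 18193 genes in all. Where a gene had several probe sets, as 22 of them did, the brightest on average was used. RNA was compared between right atria of mutants with the genotype Myh6-cre; COUP-TFIIflox/flox, right atria of COUP-TFIIflox/flox controls and ventricles of such controls, with 3 arrays in each group. All mice were C57BL/6 and 2 months old, and every group carried the floxed allele of COUP-TFII, the nuclear receptor gene Nr2f2. Cre follows the promoter of Myh6, a myosin gene of heart muscle cells, so the endothelium itself is not the intended site of the deletion, and controls without Cre cannot separate an effect of Cre from one of the deletion. The labels call the replicates biological without naming animals or pools.

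Endothelial cells line every vessel and differ by vessel type. Heart capillaries import fatty acids and carry carbonic anhydrase and water channels, veins and activated endothelium store von Willebrand factor and display adhesion molecules for leucocytes, and endothelium with fenestrae carries diaphragms built of the protein PLVAP. Endocardium shares several surface proteins with veins, and COUP-TFII is known in vascular biology as a factor of venous and lymphatic endothelium. In whole tissue, fewer cells of a type and less RNA per cell cannot be told apart.

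Values are log2 of the deposited RMA intensity, with differences ± SE and adjusted p (Benjamini-Hochberg over all genes, threshold 0.05) from a limma model of all 9 arrays. A value in 1 array is given in the order of replicates 1, 2 and 3, and a group mean with SD over n = 3 arrays. Array medians over all probe sets lay between 6.34 and 6.38. Of the 43 genes, 40 had a mean at or above the median gene. Pecam1 and Cdh5, which define endothelium, lay between 8.13 and 9.94 in every array. The arrays also differed in other ways. The chamber labels could be checked on Myl7, the atrial myosin light chain, at 14.91 ± 0.03 in control atria and 6.87 ± 1.30 in ventricles, and on its ventricular counterpart Myl2, at 11.04 ± 0.58 and 15.01 ± 0.01; mutant atria had Myl7 at 13.56 ± 0.78 and Myl2 at 14.86 ± 0.08. Summed hepatocyte transcripts stood at 14.05, 13.31 and 11.56 in control atria. In mutant atria their range was 9.25 to 9.52, and in ventricles 8.48 to 8.58. The sex-linked transcripts were uneven. Eif2s3y of the Y chromosome stood at 3.67 to 3.82 in the ventricles, at 6.35, 9.97 and 9.53 in the control atria and at 3.90, 10.01 and 10.05 in the mutant atria. Xist, which is made from the inactive X chromosome of females, stood at 11.80 to 11.87 in the ventricles, at 12.73, 8.55 and 10.91 in the control atria and at 12.48, 6.73 and 6.48 in the mutant atria. Each control atrium array thus held Eif2s3y above the ventricles and Xist above the Y-positive mutants. Whether an array held RNA of more than 1 animal is not given in the labels, and the SD and SE then measure the spread between such samples. The 3′ excess of the Gapdh quality probe sets over their 5′ partners, which rises as RNA degrades, ranged from 0.34 to 0.36 for control atria, from 0.21 to 0.30 for mutants and from 0.15 to 0.23 for ventricles. The part of these differences in the results was not tested, except where values without an array or with a covariate are given.

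Between mutant and control right atria, 6 of the 43 genes rose and 7 fell, or 30.2% (17.5% of all genes passed, 7.76% as rises and 9.79% as falls, and 24.7% of genes at or above the median level). The median difference over the 43 was -0.17, against 0.03 over all genes. Genes typical of heart capillaries were among the risers, and genes of nitric oxide, endothelin and thrombin handling among the falls. Of the 13 calls, 6 (Mmrn1, Rgcc, Gpihbp1, Nos3, Ednrb and Thbd) held in each of 18 fits: the one of all arrays, 8 with another setting and 9 without 1 array. With control atrium replicate 3 as the only control, Gpihbp1 was the 1 of these 6 that lost its call (1.08, adjusted p = 0.0673). Between control ventricle and control atrium the same genes differed far more: 11 were higher and 23 lower in the ventricle, 79.1% of the list (52.8% of all genes, 29.2% higher and 23.6% lower, and 61.3% of genes at or above the median level). Set against the ventricle, 18 were higher and 9 lower in the mutant atrium (32.7% of all genes, 16% higher and 16.7% lower, and 45.6% of genes at or above the median level). Of the 43, 10 passed with a log2 difference of at least 0.5 in the mutants (6.98% of all genes). The arrays of both groups did not overlap for 18 genes between mutant and control atria (37.8% of all genes), for 37 between the control chambers, 12 of them higher in the ventricle (59.7% and 33%), and for 28 between mutant atrium and ventricle (47.4%). The comparisons share arrays, so they are not independent of each other. The shares over all genes given here are also the ones to set beside each count of a class or list below. Centring each array on its median moved the median gene by 0.14 in the ventricle comparison and changed the split there to 14 higher and 19 lower.

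**Figure D1:**
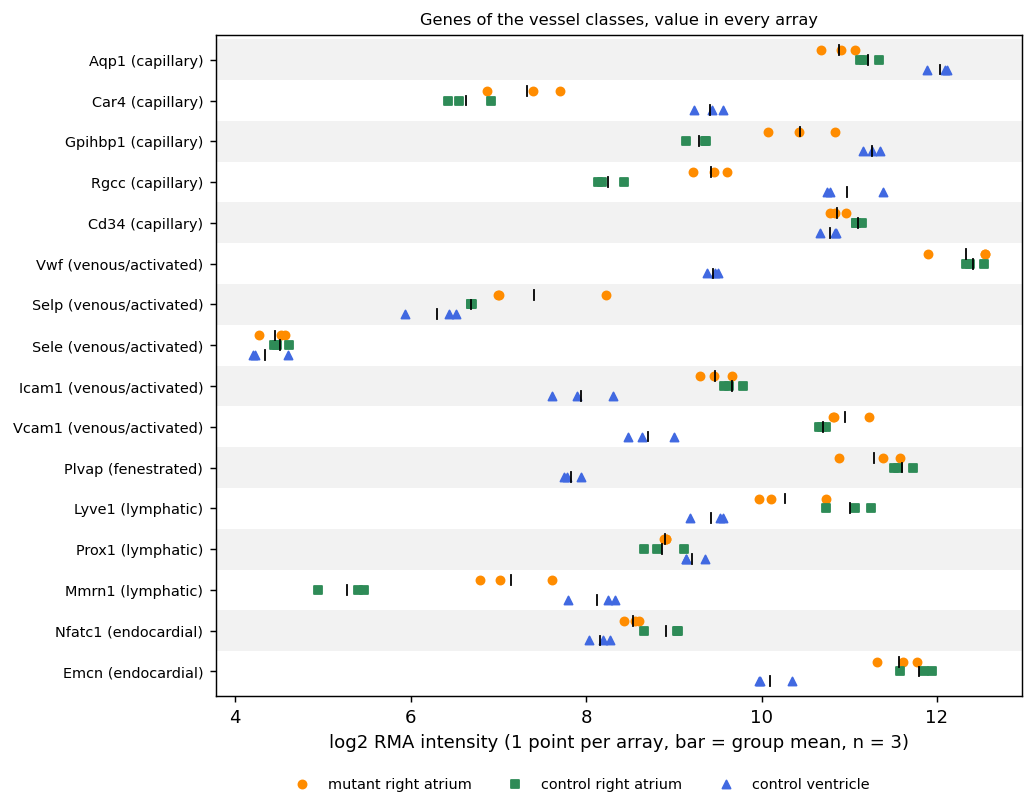
Log2 RMA intensity of the 16 capillary, venous, fenestrated, lymphatic and endocardial genes in each of the 9 arrays, with a bar at each group's mean. Rgcc, Gpihbp1 and Mmrn1 of the mutant atria lie between both control tissues, while Vwf, Plvap, Vcam1 and Icam1 of the mutant atria lie with the control atria.

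In the capillary class (Aqp1, Car4, Gpihbp1, Rgcc and Cd34), 3 of 5 genes rose in the mutant atria and none fell (7.76% and 9.79% of all genes). The median difference was 0.69. In the ventricle 4 of 5 were higher than in the control atrium and 1 lower (29.2% and 23.6% of all genes), with a median of 1.97. The class therefore marked the ventricle, and part of it was raised in the mutant atrium. Rgcc, a regulator of the cell cycle that is induced by complement and abundant in heart capillaries, gave 9.22, 9.60 and 9.46 in mutant atria, 8.18, 8.43 and 8.14 in control atria and 10.78, 11.39 and 10.75 in ventricles. The 3 groups did not overlap, with mutant atria in the middle. Rgcc was 2.26-fold higher in mutant than in control atria (1.18 ± 0.17, adjusted p = 0.00195), and still 2.92-fold below the ventricle (-1.55 ± 0.17, adjusted p = 0.000138).

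Gpihbp1 encodes the protein that carries lipoprotein lipase to the inner face of capillaries, where fatty acids are released from triglycerides. It stood at 10.07, 10.83 and 10.42 in mutant atria, 9.14, 9.36 and 9.36 in control atria and 11.16, 11.26 and 11.35 in ventricles. Again no array of one group reached another group. The rise in mutant atria was 2.23-fold (1.16 ± 0.16, adjusted p = 0.0017), and the ventricle was 3.92-fold above the control atrium (1.97 ± 0.16, adjusted p = 1.22e-05). With the control atrium lowest in hepatocyte transcripts as the only control array, the rise was 1.08 and did not pass (adjusted p = 0.0673), a fit in which that array is assumed to vary like the other groups.

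Car4, the carbonic anhydrase on the surface of capillary endothelium, showed the largest chamber difference of the class. Its values were 6.87, 7.70 and 7.40 in mutant atria, 6.42, 6.91 and 6.55 in control atria and 9.23, 9.43 and 9.56 in ventricles. The ventricle was 6.87-fold higher than the control atrium (2.78 ± 0.20, adjusted p = 4.73e-06). Mutant and control atria overlapped by 1 array, and the rise of 0.69 ± 0.20 (adjusted p = 0.0412) lost its call without mutant replicate 2 (0.51, adjusted p = 0.126) or 3 (0.66, 0.114), control atrium replicate 1 (0.59, 0.135) or 3 (0.65, 0.0915), or any of the 3 ventricles (0.0515 to 0.0576). Its other probe set differed by 0.54 ± 0.14 (adjusted p = 0.0297). Aqp1, the water channel of capillaries, was lower in each mutant array than in each control atrium: it gave 10.91, 11.07 and 10.68 there, 11.12, 11.17 and 11.34 in control atria and 11.88, 12.12 and 12.09 in ventricles. It was 1.76-fold higher in ventricle than in control atrium (0.82 ± 0.11, adjusted p = 0.000247), and its difference between mutant and control atria did not pass (-0.33 ± 0.11, adjusted p = 0.0714). That difference was called in 3 of the 18 fits: without mutant replicate 2 (-0.42, adjusted p = 0.0479), with a robust variance trend over intensity (-0.33, 0.0477) and with array weights (-0.38, 0.0302). Aqp1 is also made by mesothelium and red cells. Cd34, a sialomucin of capillaries and of interstitial cells, stood at 10.77, 10.96 and 10.83 in mutant atria, 11.14, 11.08 and 11.08 in control atria and 10.84, 10.66 and 10.85 in ventricles. Mutant atria and ventricles overlapped for Cd34, and the control atria lay above both. The ventricle was lower than the control atrium (-0.32 ± 0.08, adjusted p = 0.00669), a call lost with median centring (-0.18, adjusted p = 0.0543), with the level of Y-linked genes as a covariate (-0.28, 0.0637) and with control atrium replicate 3 as the only control (-0.29, 0.103). The mutant difference of -0.24 ± 0.08 (adjusted p = 0.0532) did not pass in the fit of all arrays and was called in 5 of the 18 fits, among them the one without ventricle replicate 2 (-0.24, adjusted p = 0.0413).

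Promoter sequence was used for 23 of the 43 genes, in 32 windows, with windows of these genes on 1 chromosome left out. The windows of all genes given below keep that chromosome. Shown are the 250 bases before the start of Car4, Rgcc and Mmrn1, which rose in the mutant atria and were high in the ventricle, and of Emcn, which was high in both kinds of atrium. The sequences are from RefSeq, build GRCm38.p6, 5′ to 3′ on the gene's strand: Car4 at chr11:84957504-84957753 (plus strand), Rgcc at chr14:79301636-79301885 (minus), Mmrn1 at chr6:60944067-60944316 (plus) and Emcn at chr3:137340828-137341077 (plus). Capitals mark the core GGAAG of sites for ETS factors such as ERG and FLI1 and the core AGGTCA of COUP-TF sites, each on either strand (CTTCC and TGACCT in the other direction). The letters of both can overlap by 2 bases.
Car4: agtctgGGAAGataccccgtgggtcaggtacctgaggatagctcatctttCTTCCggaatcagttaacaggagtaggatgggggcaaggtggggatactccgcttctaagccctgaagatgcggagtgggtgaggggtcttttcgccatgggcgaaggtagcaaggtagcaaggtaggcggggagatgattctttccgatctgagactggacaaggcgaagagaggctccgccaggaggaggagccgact
Rgcc: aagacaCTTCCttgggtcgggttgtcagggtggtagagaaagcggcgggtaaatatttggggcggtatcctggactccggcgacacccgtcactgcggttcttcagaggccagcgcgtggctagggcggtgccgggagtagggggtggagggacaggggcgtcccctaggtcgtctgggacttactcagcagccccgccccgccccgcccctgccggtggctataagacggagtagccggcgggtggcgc
Mmrn1: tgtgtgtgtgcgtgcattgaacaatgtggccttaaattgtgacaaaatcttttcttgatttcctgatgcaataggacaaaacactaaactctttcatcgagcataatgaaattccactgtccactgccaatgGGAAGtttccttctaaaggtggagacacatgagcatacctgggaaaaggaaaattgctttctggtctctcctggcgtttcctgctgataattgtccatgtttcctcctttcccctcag
Emcn: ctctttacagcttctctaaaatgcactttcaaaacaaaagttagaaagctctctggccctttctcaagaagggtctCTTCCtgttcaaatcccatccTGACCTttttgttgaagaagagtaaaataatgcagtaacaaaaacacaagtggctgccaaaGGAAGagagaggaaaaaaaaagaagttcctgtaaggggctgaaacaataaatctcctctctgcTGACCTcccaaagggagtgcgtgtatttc
The windows of Car4 and Emcn each held 2 ETS cores, and those of Rgcc and Mmrn1 held 1 each. The COUP-TF core was matched 2 times in the Emcn window and not in the other windows shown. Among windows not shown, it was matched in a window of Egfl7, Erg, Procr and Selp. It was absent before Eng, Icam1 and Ece1, which like Emcn were high in both kinds of atrium. The contrast between the windows shown therefore depends on which genes were chosen. Over all 32851 promoter windows of this length, 64.1% held an ETS core and 14% a COUP-TF core, against 24 and 5 of the 32 windows of these genes. The KLF letters CACCC were present in 20 of the 32 windows (52% of all) and the SOX letters AACAAT in 4 (9.42% of all). KLF letters occurred 4 times before Rgcc. A match describes the letters of the window and is no evidence of binding.

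In the venous and activated class (Vwf, Selp, Sele, Icam1 and Vcam1), 3 of 5 were lower in ventricle than in control atrium and none higher, with a median of -1.72. Over all genes 23.6% were lower there. In either direction 52.8% of all genes passed, and 61.3% of genes at or above the median level, so 3 of 5 called lies near that share. None of the class passed between mutant and control atria, with a median of -0.05. Vwf encodes von Willebrand factor, the clotting protein stored by venous and endocardial cells. It stood at 12.55, 12.55 and 11.90 in mutant atria, 12.53, 12.38 and 12.33 in control atria and 9.50, 9.47 and 9.37 in ventricles. Both kinds of atria overlapped, far above the ventricle, with a 7.4-fold difference between mutant atrium and ventricle (2.89 ± 0.16, adjusted p = 2.67e-06) and 7.81-fold between control atrium and ventricle.

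Vcam1, the receptor for leucocyte integrins, gave 11.23, 10.83 and 10.81 in mutant atria, 10.74, 10.69 and 10.66 in control atria and 9.01, 8.48 and 8.64 in ventricles. Mutant arrays were all slightly above control atria, by 0.26 ± 0.14 (adjusted p = 0.243), which did not pass, while both lay above the ventricle (mutant by 2.25 ± 0.14, adjusted p = 6.25e-06). Icam1 stood at 9.46, 9.66 and 9.30 in mutant atria, 9.62, 9.57 and 9.78 in control atria and 8.31, 7.61 and 7.90 in ventricles, a ventricular difference from the control atrium of -1.72 ± 0.16 (adjusted p = 2.54e-05). Icam1 and Vcam1 are also made by mesothelium, whose 10 markers were all lower in ventricle (median -2.84) and in mutant atria (median -1.62) than in control atria. Their part in the values of Icam1 and Vcam1 was not tested.

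Selp and Sele encode the P- and E-selectins, which slow leucocytes on activated endothelium. Selp gave 7.00, 8.22 and 7.00 in mutant atria, 6.69, 6.69 and 6.70 in control atria and 6.52, 5.94 and 6.44 in ventricles. The mutant arrays were all higher than both controls, but replicate 2 stood far above the other 2 and the difference from control atria did not pass (0.72 ± 0.29, adjusted p = 0.127). Against the ventricle Selp passed (1.11 ± 0.29, adjusted p = 0.017), a call lost without ventricle replicate 2 (0.93, adjusted p = 0.0617). P-selectin is also stored in platelets, and 1 of 5 platelet markers, Pf4, rose in the mutants (0.38, adjusted p = 0.0115). Sele lay near the bottom of the range at 4.20 to 4.61 in all 9 arrays. It passed in no comparison of all arrays, and in the ventricle it was called without ventricle replicate 1 (-0.30, adjusted p = 0.0417) and after renewed quantile normalisation (-0.31, 0.0479), at levels near background.

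Plvap was the only gene of the fenestrated class, and it showed the largest chamber difference of all 43. It encodes the protein of the diaphragms of fenestrae and of caveolae, and it is also a marker of endocardium. Its values were 11.57, 10.88 and 11.38 in mutant atria, 11.56, 11.51 and 11.73 in control atria and 7.94, 7.78 and 7.75 in ventricles. Mutant and control atria overlapped, and every atrium stood above every ventricle. The control atrium was 13.7-fold above the ventricle (ventricle -3.77 ± 0.15, adjusted p = 2.11e-07) and the mutant atrium 11-fold (3.46 ± 0.15, adjusted p = 8.77e-07), whereas mutant and control atria differed by -0.32 ± 0.15 (adjusted p = 0.187).

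The lymphatic class did not move as a unit: in the mutant atria Mmrn1 rose, Lyve1 fell and Prox1 did not pass. Mmrn1 encodes multimerin 1, a large secreted protein of lymphatic and other endothelium and of platelets. It gave 6.79, 7.61 and 7.02 in mutant atria, 4.95, 5.46 and 5.40 in control atria and 8.25, 7.80 and 8.33 in ventricles. The groups did not overlap, and the control atria lay below the median of all probe sets, where differences are compressed. Mmrn1 was 3.66-fold higher in mutant than in control atria (1.87 ± 0.22, adjusted p = 0.000667), the largest rise of the list, and 7.25-fold higher in ventricle (2.86 ± 0.22, adjusted p = 8.35e-06). A dimmer probe set of Mmrn1, at a mean of 3.32 in control atria, gave -0.03 ± 0.07 and did not pass. Its promoter window is shown above with Rgcc and Car4.

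Lyve1, the hyaluronan receptor of lymphatic vessels that is also carried by resident macrophages, stood at 9.98, 10.74 and 10.10 in mutant atria, 10.73, 11.06 and 11.24 in control atria and 9.19, 9.56 and 9.53 in ventricles. Mutant replicate 2 reached the lowest control atrium, and the other 2 mutants lay below. The fall was 1.67-fold (-0.74 ± 0.20, adjusted p = 0.0344) and lost its call without mutant replicate 1 (-0.59, adjusted p = 0.0961) or 3 (-0.66, 0.109) or control atrium replicate 2 (-0.72, 0.0966) or 3 (-0.63, 0.0901). Its other probe set gave -0.72 ± 0.19 (adjusted p = 0.0331). Macrophage markers rose in 7 of 10 cases in the same mutant atria (7.76% of all genes rose), with a median of 0.62. Their summed level was 13.69 to 14.21 against 13.38 to 13.53 in control atria. Stab2 and Clec4g, which mark liver sinusoids that also make Lyve1, stood at 5.62 ± 0.05 and 5.84 ± 0.07 in control atria, and neither was lower in the mutants. Both means lie below the median of all probe sets, where differences are compressed. The part of macrophages and of liver in the Lyve1 values was not tested. Prox1, the master factor of lymphatic identity that heart muscle cells also make, gave 8.92, 8.88 and 8.92 in mutant atria, 9.12, 8.81 and 8.66 in control atria and 9.14, 9.13 and 9.35 in ventricles. The mutant values fell inside the range of the control atria. The ventricle was higher by 0.34 ± 0.11 (adjusted p = 0.0287), a call lost without control atrium replicate 2 (0.31, adjusted p = 0.0834) or 3 (0.24, 0.0899) or ventricle replicate 3 (0.27, 0.0961), in the fit of only the 6 arrays compared (0.34, 0.0553) and with the Y-linked covariate (0.21, 0.257). A dimmer Prox1 probe set did rise in the mutants (0.49 ± 0.13, adjusted p = 0.0304), from a mean of 6.67 to 7.16.

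Both endocardial genes were lower in ventricle than in control atrium. Nfatc1, the transcription factor that marks endocardium and acts in valve formation, gave 8.61, 8.55 and 8.43 in mutant atria, 8.66, 9.04 and 9.05 in control atria and 8.03, 8.27 and 8.19 in ventricles. The mutant arrays lay in between without overlap, by a small margin to control atrium replicate 1. The fall in the mutants (-0.38 ± 0.11, adjusted p = 0.0446) was not stable: over the fits its adjusted p ranged from 0.00876 to 0.141, and of its other probe sets none passed. It was lost without any of the 3 mutant arrays (0.063 to 0.138), control atrium replicate 2 (0.141) or 3 (0.113), or ventricle replicate 2 (0.0516) or 3 (0.0611). Emcn, the endomucin of endocardium, veins and capillaries, stood at 11.61, 11.77 and 11.32 in mutant atria, 11.95, 11.58 and 11.85 in control atria and 10.35, 9.98 and 9.97 in ventricles. Mutant and control atria overlapped (-0.22 ± 0.15, adjusted p = 0.324), and the mutant atrium was 2.77-fold above the ventricle (1.47 ± 0.15, adjusted p = 7.7e-05).

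**Figure D2:**
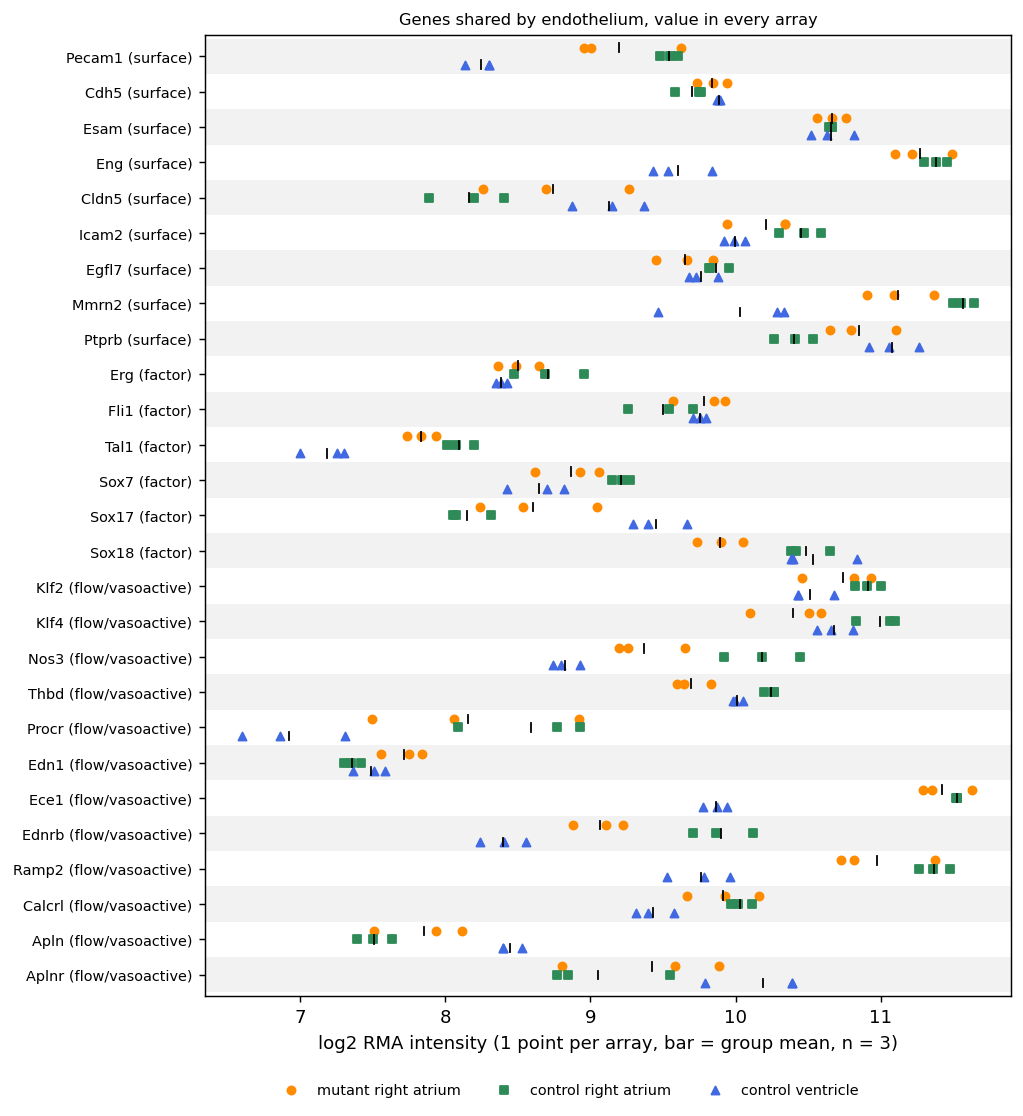
Log2 RMA intensity of the 27 genes shared by endothelium of several vessel types, in each of the 9 arrays, with a bar at each group's mean. Cdh5 and Esam lie close together in all groups, while Eng, Ece1 and Ramp2 are low in the 3 ventricles only.

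Among the 9 junction and surface proteins of all endothelium, 1 rose in the mutant atria and none fell (7.76% and 9.79% of all genes). The median was -0.11. Cdh5, the cadherin of endothelial junctions, stood at 9.73, 9.94 and 9.85 in mutant atria, 9.58, 9.75 and 9.76 in control atria and 9.90, 9.87 and 9.89 in ventricles. In the fit of all arrays it passed in no comparison, but its ventricular difference of 0.19 ± 0.07 (adjusted p = 0.0581) was called in 5 of the 18 fits, with 0.32 (adjusted p = 0.00549) after median centring. The adhesion molecule Esam (10.52 to 10.82 over all arrays) and the secreted Egfl7 (9.45 to 9.96) were called in none of the 18. The called gene was Ptprb, the phosphatase that restrains the angiopoietin receptor, at 10.65, 11.10 and 10.80 in mutant atria, 10.26, 10.53 and 10.41 in control atria and 10.92, 11.06 and 11.26 in ventricles. Its rise of 0.45 ± 0.13 (adjusted p = 0.0427) was lost without mutant replicate 2 (0.32, adjusted p = 0.129) or 3 (0.47, 0.086), any of the 3 control atria (0.0608 to 0.137) or ventricle replicate 2 (0.0589).

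Between the control chambers this group split. Eng, the endoglin coreceptor for TGF-beta ligands, gave 11.49, 11.09 and 11.21 in mutant atria, 11.46, 11.38 and 11.30 in control atria and 9.43, 9.53 and 9.84 in ventricles, 3.43-fold lower in ventricle than in control atrium (-1.78 ± 0.13, adjusted p = 4.26e-06). Mmrn2, a matrix protein of endothelium, gave 11.37, 10.91 and 11.09 in mutant atria, 11.50, 11.55 and 11.64 in control atria and 10.28, 9.47 and 10.33 in ventricles (ventricle -1.54 ± 0.21, adjusted p = 0.000278). Pecam1, the junction protein CD31, stood at 9.62, 8.96 and 9.01 in mutant atria, 9.48, 9.54 and 9.60 in control atria and 8.30, 8.13 and 8.30 in ventricles. These 3 genes were lower in the ventricle with no overlap.

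Mutant replicates 2 and 3 of Pecam1 stood below the control atria and replicate 1 above them, and the difference passed only without replicate 1 (-0.56, adjusted p = 0.00281) or with array weights (-0.44, adjusted p = 0.0374) among the fits run. Icam2, which binds leucocytes at rest, gave 10.34, 10.34 and 9.94 in mutant atria, 10.30, 10.59 and 10.47 in control atria and 9.92, 10.07 and 9.99 in ventricles, with a ventricular difference of -0.46 ± 0.12 (adjusted p = 0.00932). Cldn5, the claudin of tight capillary junctions, went the other way between chambers, with 8.26, 8.70 and 9.26 in mutant atria, 7.89, 8.41 and 8.20 in control atria and 9.15, 8.87 and 9.37 in ventricles. It was higher in ventricle than in control atrium (0.96 ± 0.24, adjusted p = 0.00781), and the mutant atria, spread over the range of both, did not pass (0.58 ± 0.24, adjusted p = 0.128), except without replicate 1 (0.82, adjusted p = 0.0344) or with a covariate of Y-linked genes (0.62, adjusted p = 0.0317).

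Of the 6 endothelial transcription factors, 1 fell in the mutant atria and none rose, near the 17.5% of all genes that passed. The factor that fell was Sox18, which acts in vessel and lymphatic development. It gave 9.90, 10.05 and 9.73 in mutant atria, 10.42, 10.38 and 10.65 in control atria and 10.38, 10.39 and 10.84 in ventricles. Here the mutant arrays were the low ones against both controls, by -0.59 ± 0.14 from control atrium (adjusted p = 0.0186) and -0.64 ± 0.14 from ventricle (adjusted p = 0.00604). The first call was lost without mutant replicate 3 (-0.51, adjusted p = 0.0679) or control atrium replicate 3 (-0.50, 0.0533). Its relative Sox17, a factor of arteries and endocardium, stood at 8.24, 9.05 and 8.54 in mutant atria, 8.08, 8.31 and 8.06 in control atria and 9.40, 9.29 and 9.66 in ventricles. It was 2.47-fold higher in ventricle than in control atrium (1.30 ± 0.18, adjusted p = 0.00034), while the mutant difference of 0.46 ± 0.18 (adjusted p = 0.12) passed without mutant replicate 1 (0.64, adjusted p = 0.0333). Its dimmer probe set passed with all arrays (0.41 ± 0.11, adjusted p = 0.0401).

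The third SoxF gene, Sox7, gave 8.93, 9.06 and 8.62 in mutant atria, 9.21, 9.15 and 9.27 in control atria and 8.43, 8.70 and 8.82 in ventricles, and was lower in ventricle (-0.56 ± 0.13, adjusted p = 0.00495). Between mutant and control atria Sox7 was called in 1 of the 18 fits, that with array weights (-0.41, adjusted p = 0.0409). The SoxF genes thus differed: against the control atrium, Sox17 was higher and Sox7 lower in the ventricle, and Sox18 was lower in the mutant atrium. Tal1, a factor shared with blood lineages, gave 7.84, 7.74 and 7.93 in mutant atria, 8.20, 8.02 and 8.07 in control atria and 7.25, 7.00 and 7.30 in ventricles, 1.88-fold lower in ventricle than in control atrium (adjusted p = 4.97e-05). The ETS factors Erg (8.35 to 8.95 over all arrays) and Fli1 (9.26 to 9.93) did not differ between mutant and control atria by a called amount (-0.21 ± 0.12 and 0.28 ± 0.12), though a dimmer probe set of Fli1 rose (0.39 ± 0.10, adjusted p = 0.0285). Erg was called lower in the ventricle (-0.32 ± 0.12, adjusted p = 0.0428), a call lost without mutant replicate 3 (0.0591), control atrium replicate 1 (0.14) or 2 (0.0838), or any of the 3 ventricles (0.071 to 0.103). The difference shrank to -0.14 (adjusted p = 0.253) with the mean of all probe sets, -0.17 (0.25) after renewed quantile normalisation, -0.18 (0.17) after median centring and -0.09 (0.6) with control atrium replicate 3 as the only control.

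The genes of flow response, vessel tone and anticoagulation held 4 of the 7 falls in the mutant atria. Of these 12 genes 4 fell and 1 rose (9.79% and 7.76% of all genes), with a median of -0.29. In the ventricle 8 of 12 were lower than in control atrium and 2 higher (23.6% and 29.2% of all genes). Nos3, the endothelial nitric oxide synthase, gave 9.65, 9.19 and 9.26 in mutant atria, 9.92, 10.18 and 10.44 in control atria and 8.74, 8.80 and 8.93 in ventricles. The 3 groups did not overlap, and the mutant atria were 1.76-fold below the control atria (-0.81 ± 0.15, adjusted p = 0.006). Their excess over the ventricle (0.55 ± 0.15, adjusted p = 0.0192) lost its call without mutant replicate 1 (0.40, adjusted p = 0.0582) or ventricle replicate 1 (0.51, 0.0606) or 2 (0.53, 0.0531).

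Ednrb, the endothelin B receptor, which on endothelium triggers nitric oxide release, stood at 8.88, 9.22 and 9.10 in mutant atria, 9.71, 10.12 and 9.87 in control atria and 8.24, 8.40 and 8.55 in ventricles. The groups did not overlap. The fall was 1.78-fold (-0.83 ± 0.13, adjusted p = 0.00258), and its other 2 probe sets fell as well (-0.84 ± 0.17 and -0.41 ± 0.09). The ligand gene Edn1, endothelin 1, moved the other way, at 7.84, 7.56 and 7.75 in mutant atria, 7.42, 7.30 and 7.35 in control atria and 7.59, 7.51 and 7.36 in ventricles. Its rise of 0.36 ± 0.09 (adjusted p = 0.0231) was lost without mutant replicate 1 (0.30, adjusted p = 0.0665) or 3 (0.34, 0.0753) or control atrium replicate 2 (0.33, 0.0785) or 3 (0.36, 0.0514). Ece1, the protease that activates endothelin, gave 11.63, 11.35 and 11.29 in mutant atria, 11.53, 11.52 and 11.53 in control atria and 9.78, 9.87 and 9.94 in ventricles. Ece1 thus overlapped between both kinds of atria (-0.10 ± 0.09, adjusted p = 0.472) and was 2.95-fold higher in mutant atrium than in ventricle.

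Thbd encodes thrombomodulin, the endothelial receptor that turns thrombin toward activating protein C. It stood at 9.83, 9.65 and 9.60 in mutant atria, 10.19, 10.27 and 10.26 in control atria and 10.00, 9.98 and 10.05 in ventricles, lowest in the mutants with no overlap. It fell by 0.55 ± 0.07 from the control atrium (adjusted p = 0.0011) and was also below the ventricle (-0.32 ± 0.07, adjusted p = 0.00775), a call lost with the Y-linked covariate (-0.25, adjusted p = 0.0772). Procr, the receptor of protein C, varied more, with 8.06, 7.49 and 8.92 in mutant atria, 8.93, 8.09 and 8.77 in control atria and 7.31, 6.60 and 6.86 in ventricles. Both kinds of atria overlapped (-0.44 ± 0.35, adjusted p = 0.417), and the ventricle was 3.18-fold below the control atrium (adjusted p = 0.0033). Mesothelial markers fell in the same mutant atria, and the part of mesothelium in the Thbd and Procr values was not tested.

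Klf2 and Klf4 are factors that laminar flow induces and that drive Nos3 and Thbd. Klf4 gave 10.59, 10.10 and 10.50 in mutant atria, 11.06, 10.83 and 11.10 in control atria and 10.66, 10.56 and 10.81 in ventricles. Its fall of -0.60 ± 0.13 (adjusted p = 0.0142) did not pass when control atrium replicate 1 was left out (-0.57, adjusted p = 0.0524), and its other probe set gave -0.39 ± 0.15 (adjusted p = 0.11). Klf2, at 10.74 ± 0.25 in mutant and 10.91 ± 0.09 in control atria, did not pass between mutant and control atria (-0.17 ± 0.12, adjusted p = 0.354). It was called lower in the ventricle (-0.40 ± 0.12, adjusted p = 0.0217), but not without control atrium replicate 1 (-0.35, adjusted p = 0.0734) or ventricle replicate 1 (-0.36, 0.0682) or 2 (-0.36, 0.0658).

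The receptor for adrenomedullin, a peptide that keeps vessels tight, is built of the proteins of Calcrl and Ramp2. Ramp2 gave 11.37, 10.72 and 10.82 in mutant atria, 11.27, 11.36 and 11.48 in control atria and 9.53, 9.79 and 9.96 in ventricles, 3.06-fold lower in ventricle than in control atrium (-1.61 ± 0.17, adjusted p = 5.12e-05). Mutant replicate 1 lay with the control atria and the other 2 below them, and the difference passed without replicate 1 (-0.60, adjusted p = 0.015) and with array weights (-0.48, 0.0362) but not in the fit of all arrays (-0.40 ± 0.17, adjusted p = 0.138). Calcrl gave 9.92, 10.16 and 9.66 in mutant atria, 10.12, 10.01 and 9.97 in control atria and 9.57, 9.40 and 9.32 in ventricles (ventricle -0.60 ± 0.12, adjusted p = 0.00261), and did not differ by a called amount between mutant and control atria.

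The peptide apelin and its receptor were higher in the ventricle. Apln, a ligand of growing and capillary endothelium, gave 8.12, 7.51 and 7.94 in mutant atria, 7.39, 7.50 and 7.63 in control atria and 8.40, 8.53 and 8.40 in ventricles (ventricle 0.94 ± 0.14, adjusted p = 0.000465). Mutant and control atria overlapped through mutant replicate 2, and the mutant difference of 0.35 ± 0.14 (adjusted p = 0.121) passed only without it (0.52, adjusted p = 0.0124) among the fits run. Aplnr, the receptor, gave 8.80, 9.89 and 9.58 in mutant atria, 8.77, 9.55 and 8.84 in control atria and 10.39, 9.79 and 10.39 in ventricles (ventricle 1.14 ± 0.30, adjusted p = 0.0108), with wide overlap between both kinds of atria.

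**Figure D3:**
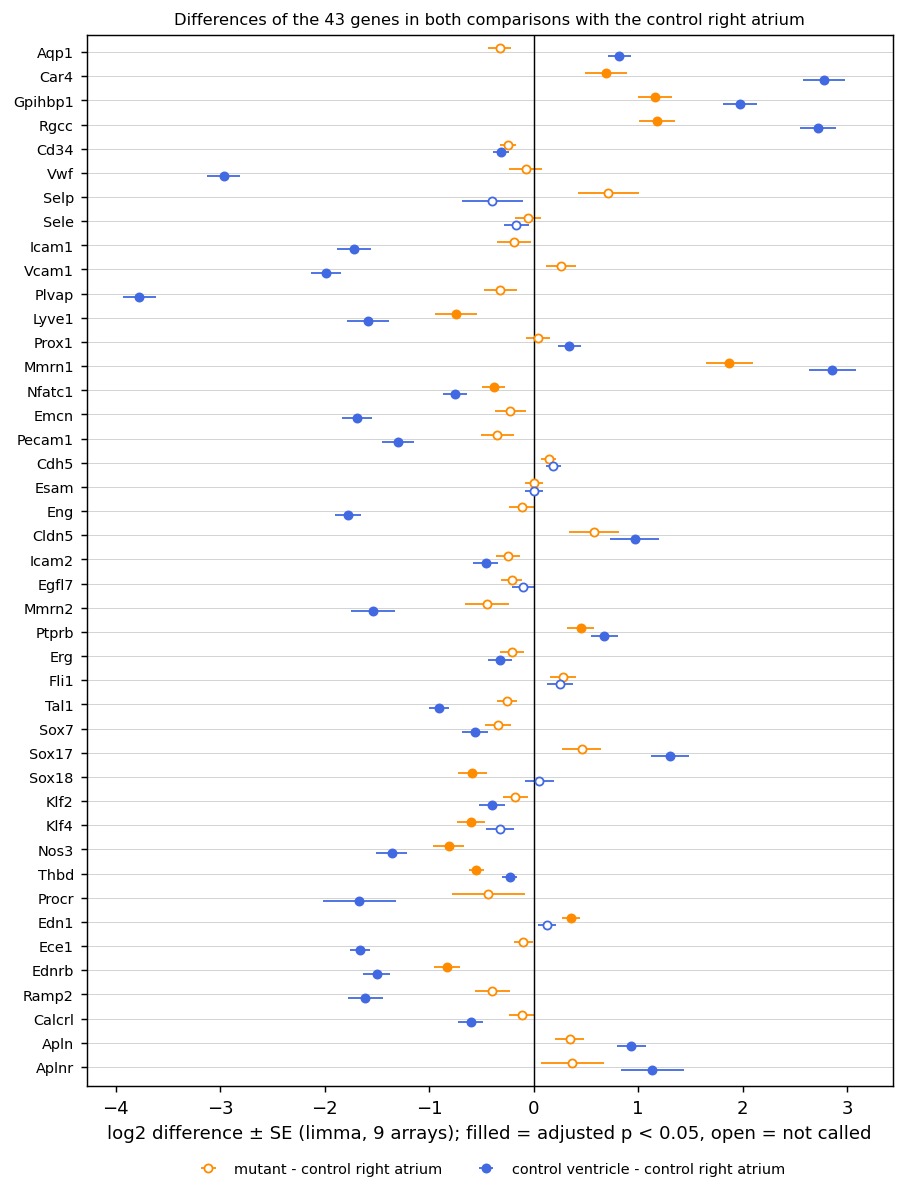
Log2 differences ± SE of all 43 genes from the control right atrium, for the mutant atrium (orange) and the control ventricle (blue), with filled points for adjusted p below 0.05. Vwf, Plvap, Eng, Ece1 and Emcn have large negative ventricular differences beside open mutant points near 0. Mmrn1, Rgcc, Gpihbp1 and Car4 are positive in both, with the control atria shared by both comparisons.

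Further genes of each vessel type, taken from lists of textbook markers, were set beside the 43. Of 9 other capillary genes, 4 rose in the mutant atria and none fell (7.76% and 9.79% of all genes), with a median of 0.41. In the ventricle 6 were higher and 1 lower (29.2% and 23.6% of all genes), with a median of 0.88. Btnl9, a surface protein of heart capillaries, rose by 1.26 ± 0.24 (adjusted p = 0.00809), Sgk1, a kinase, by 0.57 ± 0.12 (0.0107), and Fabp4, the fatty acid carrier of capillaries that fat cells also make, by 0.46 ± 0.09 (0.0109). The fat cell gene Adipoq stood at 7.07 ± 1.39 in control and 4.62 ± 0.49 in mutant atria. The median of the fat cell markers lay near background and overlapped, at 4.41 to 4.63 in control and 4.23 to 4.55 in mutant atria. The part of fat cells in the Fabp4 values was not tested. In the ventricle Fabp5 was lower (-1.57 ± 0.12) and the fatty acid receptor gene Cd36 and the capillary factor Tcf15 were higher (1.04 ± 0.09 and 1.29 ± 0.14). Cd36 is also made by heart muscle.

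Of 9 other endocardial genes, 1 rose and 1 fell in the mutant atria (7.76% and 9.79% of all genes), with a median of -0.02. In the ventricle 5 were lower and 3 higher than in control atria, with differences from -4.32 to 2.14. In mutant atrium against ventricle 6 were higher and 2 lower, with differences from -2.17 to 3.97. These genes thus went both ways between the chambers. Npr3, the clearance receptor for natriuretic peptides, stood at 11.61 ± 0.34 in mutant atria, 11.95 ± 0.14 in control atria and 7.63 ± 0.17 in ventricles, so that both kinds of atria lay far above the ventricle (ventricle minus control -4.32, mutant by 3.97 ± 0.16, adjusted p = 5.07e-07). Tmem108 fell by 0.82 ± 0.12 in the mutants (adjusted p = 0.00177), and in the ventricle it and Smoc1 were lower (-3.37 and -2.50). The gene called as a rise was Nrg1, the neuregulin ligand that endocardium sends to muscle, at 4.56 ± 0.03 in control atria and 5.96 ± 0.49 in mutant atria. Its control level lies in the range of Sele, near background, so the size of the difference cannot be read.

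Of 10 arterial genes, 2 rose and 2 fell in the mutant atria (7.76% and 9.79% of all genes), with a median of -0.08. The connexin Gja4 rose by 0.85 ± 0.13 (adjusted p = 0.00272), while Gja5, a connexin of arteries that atrial muscle also makes, fell by 1.09 ± 0.16 and the Notch target Hey1 by 0.69 ± 0.17. In the ventricle 4 were higher and 6 lower, led by Bmx, a kinase of arteries and endocardium (-3.01 ± 0.20). Of 6 other venous genes, Nr2f2 itself (-0.74 ± 0.15, adjusted p = 0.0109) and the ephrin receptor Ephb4 (-0.34 ± 0.09, adjusted p = 0.033) fell in the mutants and the secreted Lrg1 rose (0.64 ± 0.13, adjusted p = 0.0107). Since the deletion targets Nr2f2, its fall is a check of the labels. Of 6 measured lymphatic genes besides, Pdpn alone passed in the mutants (-1.10 ± 0.20, adjusted p = 0.00655), and it is also a gene of mesothelium. In the ventricle Foxc2 was lower (-2.15 ± 0.24) and Reln higher (1.72 ± 0.23).

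**Figure D4:**
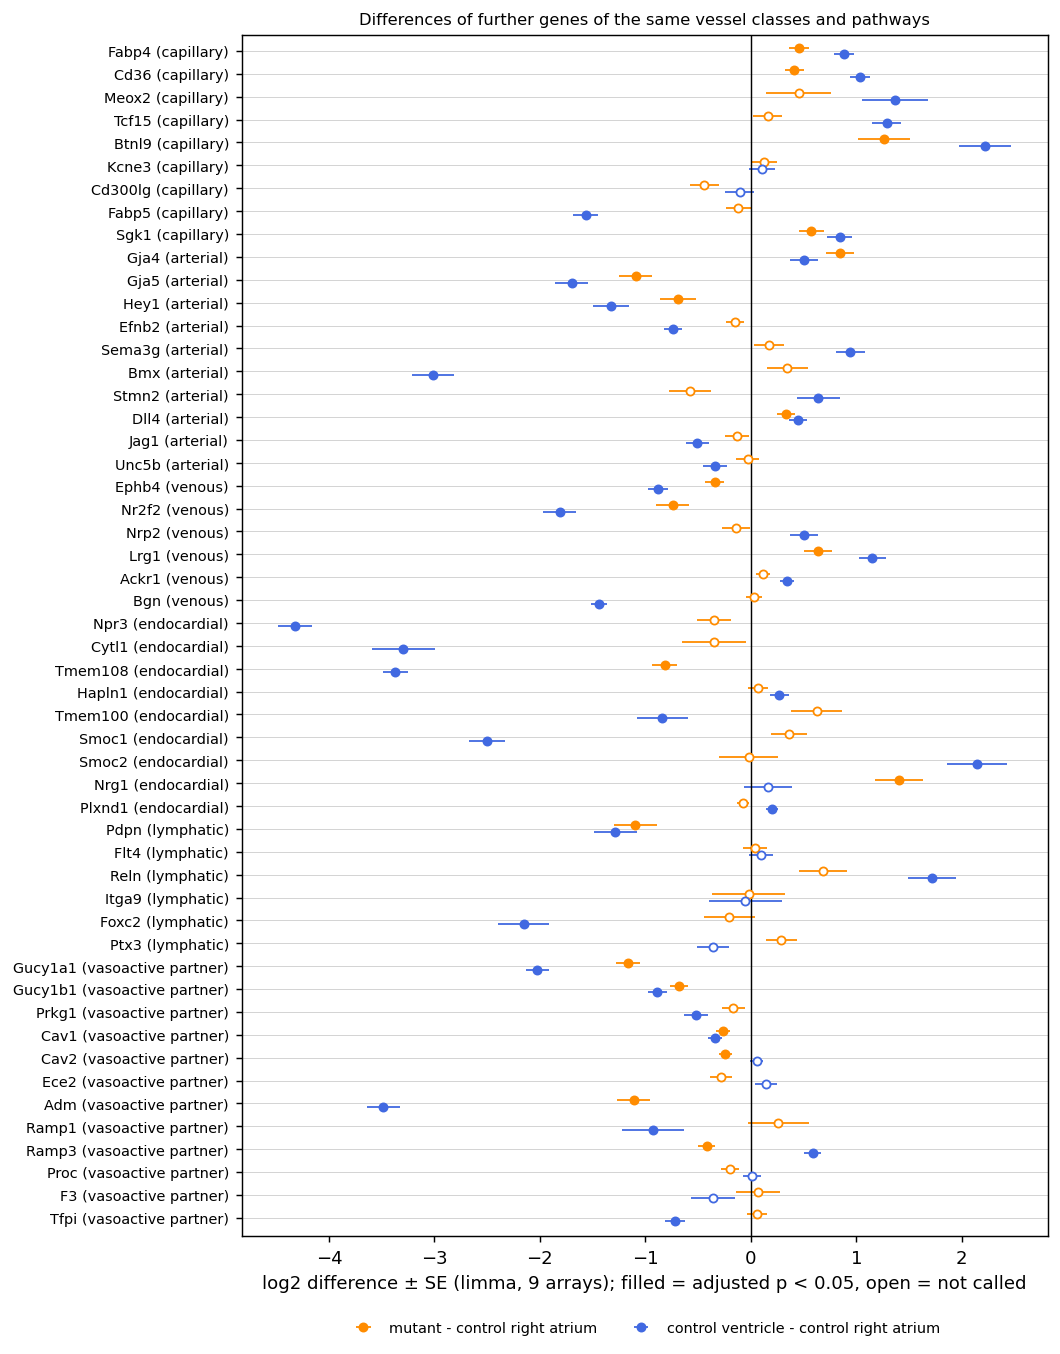
Log2 differences ± SE from the control right atrium of further capillary, arterial, venous, endocardial and lymphatic genes and of vasoactive partner genes, for the mutant atrium (orange) and the control ventricle (blue), with filled points for adjusted p below 0.05. Npr3, Cytl1 and Smoc1 are low in the ventricle with open mutant points, and Gucy1a1, Gucy1b1 and Adm are low in both. Of the 9 endocardial genes, 5 were called lower and 3 higher in the ventricle.

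The partners of nitric oxide, endothelin and adrenomedullin signalling showed more falls than rises in the mutant atria. Of 12 measured genes 6 fell and none rose (9.79% and 7.76% of all genes), with a median of -0.25. Gucy1a1 and Gucy1b1, the subunits of the guanylyl cyclase that receives nitric oxide, fell by 1.17 ± 0.11 (adjusted p = 0.000174) and 0.68 ± 0.09 (adjusted p = 0.000982). Adm, the adrenomedullin gene, fell by 1.11 ± 0.16 (adjusted p = 0.0017) and was lower in the ventricle (-3.49 ± 0.16). The cyclase subunits and Adm are made in muscle and other cells besides endothelium. Of the 7 leucocyte genes whose products bind these adhesion molecules, 1 rose, Selplg, the ligand of the selectins (0.36 ± 0.09, adjusted p = 0.0205). Of 21 other genes common to endothelium, 1 rose (Ushbp1, 0.40 ± 0.12) and 1 fell (the angiopoietin receptor Tek, -0.61 ± 0.13, adjusted p = 0.0109), with a median of -0.12.

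**Figure D5:**
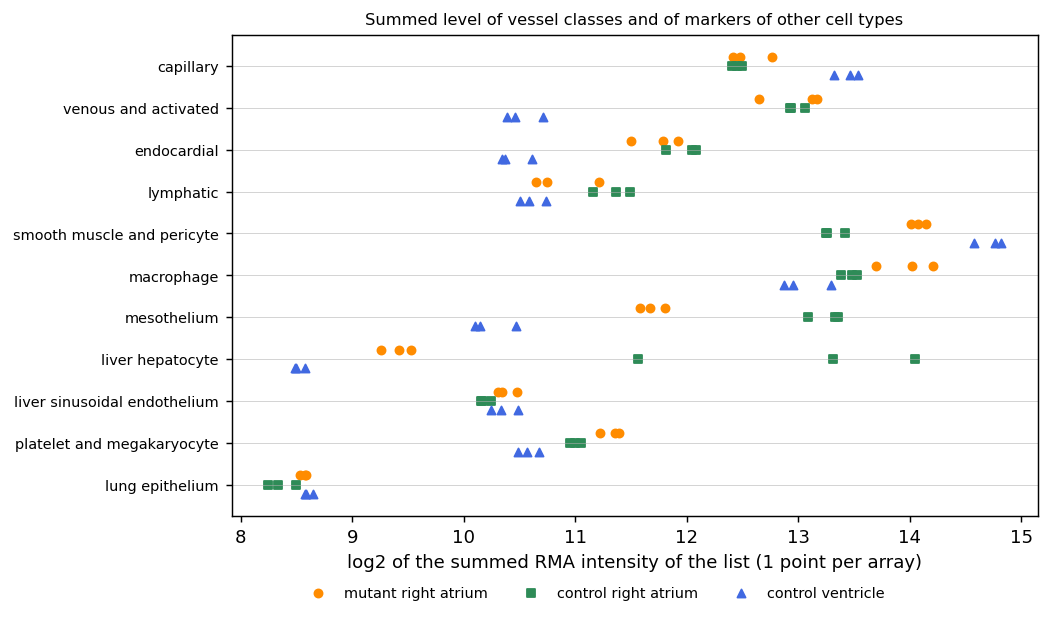
Log2 of the summed RMA intensity of 4 vessel classes and of marker lists of other cell types, 1 point per array. By this sum, smooth muscle and pericyte markers of the mutant atria lie between both control tissues, and hepatocyte and mesothelial markers are highest in the 3 control atria.

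Markers of other cell types moved along with these results, and their part in them was not tested. Smooth muscle and pericyte markers, which belong to the cells that wrap small vessels, rose in 6 of 9 cases in the mutant atria (7.76% of all genes rose). Cnn1 fell (-3.38). Their summed levels were 14.01 to 14.15 in mutant atria, 13.25 to 13.42 in control atria and 14.58 to 14.82 in ventricles. Rgcc and Gpihbp1 had the same order, but the summed level of the capillary class did not. It overlapped between mutant (12.42 to 12.76) and control atria (12.41 to 12.50), below the ventricles (13.32 to 13.54). By the median gene of each list the reading changed. The capillary median was 10.07 to 10.83 in mutant atria, 9.14 to 9.36 in control atria and 10.84 to 11.26 in ventricles. The smooth muscle and pericyte median overlapped between mutant (9.03 to 9.30) and control atria (9.18 to 9.40), below the ventricles (9.98 to 10.18). Aqp1 and Cd34 of the capillary class were lower in each mutant array than in each control atrium. All 10 mesothelial markers fell, with summed levels of 11.58 to 11.81 in mutant atria, 13.09 to 13.35 in control atria and 10.10 to 10.47 in ventricles, the order seen for Nos3, Ednrb and Nfatc1. Of the 7 lung epithelial markers none passed in the mutants, at summed levels of 8.24 to 8.65 over all arrays, with Sftpc at 5.84 ± 0.12 in control atria. Of 7 measured markers of liver sinusoids none passed in the mutants. With the mean of the Y-linked genes Eif2s3y, Kdm5d and Uty as a covariate, the 6 calls named above as held remained, and the counts against control atria were 7 higher and 6 lower. Against the ventricle, whose 3 arrays all had low Y-linked levels, 6 calls were lost (Thbd, Procr, Apln, Selp, Lyve1 and Nfatc1) and 15 higher and 9 lower genes were counted.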

How the data were processed

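The authors deposited 1 linear intensity for each probe set, summarised with RMA, per the submitters' processing notes, with 1 Affymetrix array per sample. RMA corrects background and equalises quantiles between arrays, which compresses differences near the bottom and top of the range. Aligners and builds do not apply, and the RMA software is not given in the sources used here. The log2 of each value was taken. Of 45101 probe sets, 64 controls, 932 with several genes and 9160 without a gene were left out. The brightest probe set on average stood for its gene, giving 18193 genes.

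All 9 arrays were fitted with 1 mean per group in limma 3.58.1 (R 4.3.3; 6 residual and 3.48 prior degrees of freedom), 2-sided. P-values were adjusted by the Benjamini-Hochberg method across all 18193 genes, and calls needed an adjusted p under 0.05. On simulated arrays for the mutant against control atrium comparison, 72 of 100 genes changed 1.5-fold and 93 of 100 changed 2-fold were recovered, with 6.78% false calls, among 18193 genes. The simulated noise was normal and independent between genes, drawn from the spread that limma fitted, with no effect of sex, pool or other tissue. Far fewer genes were changed than the 3192 called in the data, so these rates may not hold for the real arrays. P-values rest on the spread between these samples, whose animals or pools the labels do not name. The number of arrays limits precision.

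The genes and lists were chosen with earlier results of these data known. Each gene past the threshold with an absolute log2 difference of at least 0.5 in any comparison, and each gene of the 5 vessel classes, is given in every array (35 genes), beside a few others. From the other lists up to 3 genes per comparison with the smallest p are named, with further examples chosen after their values were seen. Alternatives are given in the closing section. Figures were drawn with matplotlib 3.10.9.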

Additional observations from a re-analysis of the deposited data

How the results depend on the processing

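In mutant against control atria the counts of 6 higher and 7 lower genes ranged from 3 to 7 and from 4 to 8 when 1 array was left out, lowest without mutant replicate 3 or control atrium replicate 3 (3 and 4 each). They were 3 and 3 at an adjusted p of 0.01, and 13 genes were lower with array weights. With control atrium replicate 3 as the only control, an alternative chosen after the data were seen, 2 were higher and 3 lower (Mmrn1, Rgcc, Nos3, Ednrb and Thbd). In the ventricle against the control atrium, leaving out 1 array gave 10 to 12 higher and 20 to 25 lower, and in mutant atrium against ventricle 15 to 19 higher and 9 to 10 lower. The covariate of Y-linked genes was also chosen after the data were seen. The cause of these shifts was not tested. Of the ventricle calls, 29 of 34 against the control atrium and 22 of 27 against the mutant atrium held in each of the 18 fits: that of all arrays, the planned settings with this threshold and those without 1 array. The added fits took more: with control atrium replicate 3 as the only control the ventricle differences of Cldn5 (adjusted p = 0.0914), Icam2 (0.0741), Sox7 (0.0568) and Calcrl (0.0733) lost their calls though they held in all 18, and with the Y-linked covariate so did those of Thbd (0.0772), Apln (0.0922) and Lyve1 (0.112) between mutant atrium and ventricle. The other fits were the mean of all probe sets, only the 6 arrays compared, a robust variance trend over intensity, a filter that dropped 40% of genes as dimmest, median centring, renewed quantile normalisation and a 1.5-fold minimum, and they kept these counts within 1.5 times. Probe sets taken on their own turned 4 called differences: a second probe set of Mmrn1 (-0.030 in the mutants) and of Erg (0.047 in ventricle against control atrium), and a dim one of Calcrl (0.20 in ventricle against control atrium and -0.067 in mutant atrium against ventricle). With the replicate block, the counts were 6 and 6, 11 and 24, and 18 and 10. The labels, which name no animals, do not say whether shared numbers pair samples. Mutant and control atria, which differ in genotype, had deviations correlated at 0.12, 0.05 and 0.02 for the same number. Mutant replicate 3 was closest to control atrium replicate 2 (0.15). Control atrium and ventricle of the same number gave 0.06, 0.04 and 0.02, and those of unlike numbers -0.08 to 0.04. Whether these came from the same hearts cannot be told from such small values. The dimmest genes, such as Sele and the weak probe sets, lie near background, where the size of a difference cannot be read.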
